A study of Mus musculus with 8 samples.

Results

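Atrial-type genes were followed in RNA sequencing of hearts of 4 mice with unedited Tafazzin (WT) and of 4 with the Barth syndrome point mutation TAZG197V. The mutation is in Tafazzin (gene Taz), the mitochondrial enzyme that matures cardiolipin. The 10 genes, out of 55471 gene rows counted, were the SH3-domain-binding kinases Sbk2, Sbk1 and Sbk3, the atrial myosin light chains Myl4 and Myl7, sarcolipin (Sln), Mybphl, Bmp10, Dkk3 and Stard10. They were chosen by name with their counts in these libraries, and so the difference between the genotypes, already known. Their genotype values are therefore descriptions and carry no test. The mice were 14 weeks old. Per the study, mutants were hemizygous males, made by CRISPR/Cas9 editing of C57BL/6N zygotes and crossed to C57BL6/J. Neither group was treated, and the RNA came from a small piece of each heart, with no chamber stated. The labels number the samples within a genotype and do not say how the piece was taken, so the spread between samples includes any difference in what was cut.

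Atrial and ventricular cardiomyocytes build the same sarcomere from partly different proteins. In the mouse, atrial cells use the light chains Myl7 and Myl4 where ventricular cells use Myl2 and Myl3, and they restrain the sarcoplasmic calcium pump with sarcolipin in addition to phospholamban. A piece of heart therefore carries atrial transcripts in proportion to the atrial muscle in it as well as to the activity of these genes.

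Among libraries, total counts ranged from 23055689 to 36301031. The ventricular light chains were abundant in every library, and the 8 ventricular markers summed to between 12500 and 18900 CPM (TMM-scaled counts relative to library size) in WT and between 12700 and 14100 CPM in TAZG197V. All 5 lung markers stayed at 10 counts or fewer in every library. The 8 brain markers summed to 137 CPM in WT 4 and 311 CPM in TAZG197V 4 against 20.1 to 34.2 CPM in the other 6 libraries, and the 5 red cell markers reached 50200 CPM in WT 4 against 211 to 981 CPM elsewhere. For Taz itself, the edited gene, the means were 60.9 ± 2.36 CPM for WT against 47.3 ± 2.6 CPM for the mutants (SD, 4 libraries each), a log2 fold change of -0.37 (SE 0.0551, edgeR quasi-likelihood adjusted p = 0.00126). A point mutation need not change the transcript level, so this value does not check the labels.

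Sbk2 and Sbk3 are neighbours on chromosome 7 (mm10). Sbk2 (ENSMUSG00000030433) spans chr7:4940512-4964406 and Sbk3 (ENSMUSG00000085272) spans chr7:4965260-4971168, both on the minus strand with 853 bases between them. Myl7 (ENSMUSG00000020469) lies at chr11:5896637-5898782 on the minus strand. The 250 bases before the RefSeq start of each of these genes (GRCm38.p6) are shown because Sbk2 and Sbk3 lie side by side and both were lower in TAZG197V, while Myl7 followed single libraries. They cover chr7:4964407-4964656, chr7:4970962-4971211 and chr11:5898783-5899032, minus strand, written 5′ to 3′.
Sbk2: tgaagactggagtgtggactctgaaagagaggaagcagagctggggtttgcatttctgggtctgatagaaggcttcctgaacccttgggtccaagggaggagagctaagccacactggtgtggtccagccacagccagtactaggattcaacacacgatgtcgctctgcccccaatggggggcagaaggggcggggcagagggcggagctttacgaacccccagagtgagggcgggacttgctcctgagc
Sbk3: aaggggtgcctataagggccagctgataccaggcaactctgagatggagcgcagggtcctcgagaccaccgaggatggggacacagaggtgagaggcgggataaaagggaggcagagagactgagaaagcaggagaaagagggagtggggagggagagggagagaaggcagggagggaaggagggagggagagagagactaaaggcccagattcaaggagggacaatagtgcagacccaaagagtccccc
Myl7: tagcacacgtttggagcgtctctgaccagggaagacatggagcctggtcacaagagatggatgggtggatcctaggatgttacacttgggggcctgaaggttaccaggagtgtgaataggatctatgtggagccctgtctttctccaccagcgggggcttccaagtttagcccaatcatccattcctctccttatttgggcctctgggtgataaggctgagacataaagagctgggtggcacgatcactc
The RefSeq start of Sbk3 lies inside the longer gene model used for counting. These windows were searched on both strands for 3 motifs of factors that act in heart muscle. The T-box site motif, AGGTGT, was present in 11.8% of 32851 mouse promoter windows of the same length. The letters searched for GATA factors, AGATAA, were present in 9.99% of those windows and the MEF2 motif in 3.2%. None of the 3 motifs occurred in these 3 windows in the exact letters searched, so no letters are in capitals. Of the 7 members with a promoter entry, only Mybphl (1 match) and Bmp10 (2 matches) held any of these letters, in both cases AGATAA. Other spellings of the sites were not searched, so the windows are not shown to lack them. Sbk1, Sln and Dkk3 had no entry.

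Sbk2, a poorly characterised serine/threonine kinase of heart muscle, was lower in every TAZG197V library than in every WT library. Its level was 7.07, 17.9, 7.34 and 12.7 CPM in WT 1 to WT 4. In TAZG197V 1 to 4 it was 0.872, 0.918, 1.19 and 0.44 CPM. The means were 11.3 ± 5.13 and 0.856 ± 0.312 CPM (SD, n = 4 each), 13.2-fold apart, and the fitted log2 fold change was -3.54 (SE 0.375). WT 2 was the highest WT library, at 1.78 times the mean of WT 3 and WT 4. The lower of WT 3 and WT 4 still exceeded the highest TAZG197V library 6.15-fold. The raw counts behind these levels were 189 to 651 in WT and 12 to 37 in TAZG197V.

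Sbk3, the adjoining kinase of the same family, was also lower in every TAZG197V library but depended more on 1 library. It was at 3.69, 34, 3.18 and 3.88 CPM in WT 1 to WT 4 and at 1.2, 0.837, 1.97 and 0.293 CPM in TAZG197V 1 to 4. WT 2 stood 9.63-fold above the mean of WT 3 and WT 4, whereas WT 1 was level with them at 1.04-fold. The mean of WT 3 and WT 4 was 3.29 times the TAZG197V mean, and the lower of the pair was 1.62 times the highest TAZG197V library. The fitted log2 fold change was -2.25 (SE 0.539), and it was -1.91 without WT 2 and -3.71 without WT 4. Both of these fits had 1 surrogate variable in place of 2, and all 8 libraries with 1 surrogate variable gave -3.51. The call was lost without TAZG197V 2 (-1.89), with WT 1, WT 2 and the surrogate variables left out (-1.71), and with the atrial score as covariate (-0.85). That score, the mean log2 CPM of the atrial genes outside the 10, was 4.30 to 5.32 in WT and 4.13 to 4.27 in TAZG197V. The score did not overlap between genotypes, with WT 4 at 4.30 close above TAZG197V 2 at 4.27. Score and genotype can thus be told apart only in part. The score also holds genes that were called themselves, such as Kcnj3. The fit with it had no surrogate variables, where Sbk3 without a covariate was at -3.38. Sbk2 kept its call with the score, at -3.35.

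Sbk1 (ENSMUSG00000042978, chr7:126272619-126295016, plus strand), the broadly expressed relative, was by far the most abundant of these kinases. Per length, its level in WT was 26.7 ± 2.81 RPKM (CPM divided by exon length in kilobases) against 3.58 ± 1.63 for Sbk2 and 3.5 ± 4.76 for Sbk3 (SD, n = 4). It was at 123, 100, 123 and 106 CPM in WT 1 to WT 4 and at 86.6, 72.9, 67.5 and 108 CPM in TAZG197V 1 to 4. TAZG197V 4 lay within the WT range and the other 3 mutant libraries below it. The fitted log2 fold change was -0.46 (SE 0.131), and this difference lost its call in 11 of 21 other settings.

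The atrial light chain Myl7 behaved differently. Its level was 27, 385, 0.194 and 0.625 CPM in WT 1 to WT 4. In TAZG197V 1 to 4 it was 0.472, 0.459, 0.387 and 1.28 CPM. WT 2, and to a lesser degree WT 1, carried the high values, while WT 3 and WT 4 overlapped with the mutant libraries. The WT mean of 103 ± 188 CPM (SD, n = 4) therefore describes no single library. Over all 8 libraries the fitted log2 fold change was -3.63 (SE 0.947). Without WT 1 it was -0.67, without WT 2 -3.90, and with both WT 1 and WT 2 left out, a setting chosen after seeing the data, it was 0.83 (SE 0.333). The fits without WT 2 and without both had 1 surrogate variable in place of 2, with which all 8 libraries gave -7.2.

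Myl4 (ENSMUSG00000061086, chr11:104550663-104595753, plus strand), the atrial essential light chain, followed the same libraries. It was at 35.2, 411, 2.45 and 1.47 CPM in WT 1 to WT 4, and between 2.32 and 3.81 CPM in the TAZG197V libraries. All 4 mutant values thus lay near or above WT 3 and WT 4. The second surrogate variable of the fit was -0.851 in WT 2 and between -0.154 and 0.358 elsewhere, so the fit sets much of WT 2 aside. The fitted log2 fold change of Myl4 was -1.90 (SE 0.511) with it and -5.24 with no surrogate variables, where Myl7 was at -7.34. For Myl4 it was -5.67 without WT 4, -5.38 without TAZG197V 4, -2.09 without WT 2, -0.36 without WT 1 and 0.60 (SE 0.306) without WT 1 and WT 2. Likewise Myl7 was at -8.50 without WT 4 and -7.79 without TAZG197V 4. The fits without WT 2, WT 4 or TAZG197V 4, and without WT 1 and WT 2, had 1 surrogate variable in place of 2. With all 8 libraries and 1 surrogate variable Myl4 was at -5.1 and Myl7 at -7.2. The values of those fits thus do not show the omitted libraries alone. Of the 21 other settings, Myl7 lost its call in 8 and changed sign in 3, and Myl4 lost it in 9 and changed sign in 3.

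Sarcolipin (ENSMUSG00000042045, chr9:53850164-53854560, plus strand), the small inhibitor of the calcium pump in atrial muscle, had 290 and 3153 counts in WT 1 and WT 2. It had 1 and 5 counts in WT 3 and WT 4, and 1 to 6 counts in the TAZG197V libraries. Mybphl (ENSMUSG00000068745, chr3:108364911-108380057, plus strand), a myosin-binding protein of atrium and conduction system, had 92 and 1326 counts in WT 1 and WT 2. It had 5 and 10 counts in WT 3 and WT 4, and 0 to 6 in TAZG197V. Both genes were near the counting floor of 3 counts in most libraries, and neither passed the low-count filter of the main fit. Of the exon bases of Mybphl, 6.97% also belong to Gm12522, so its counts are uncertain to that extent.

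**Figure D1:**
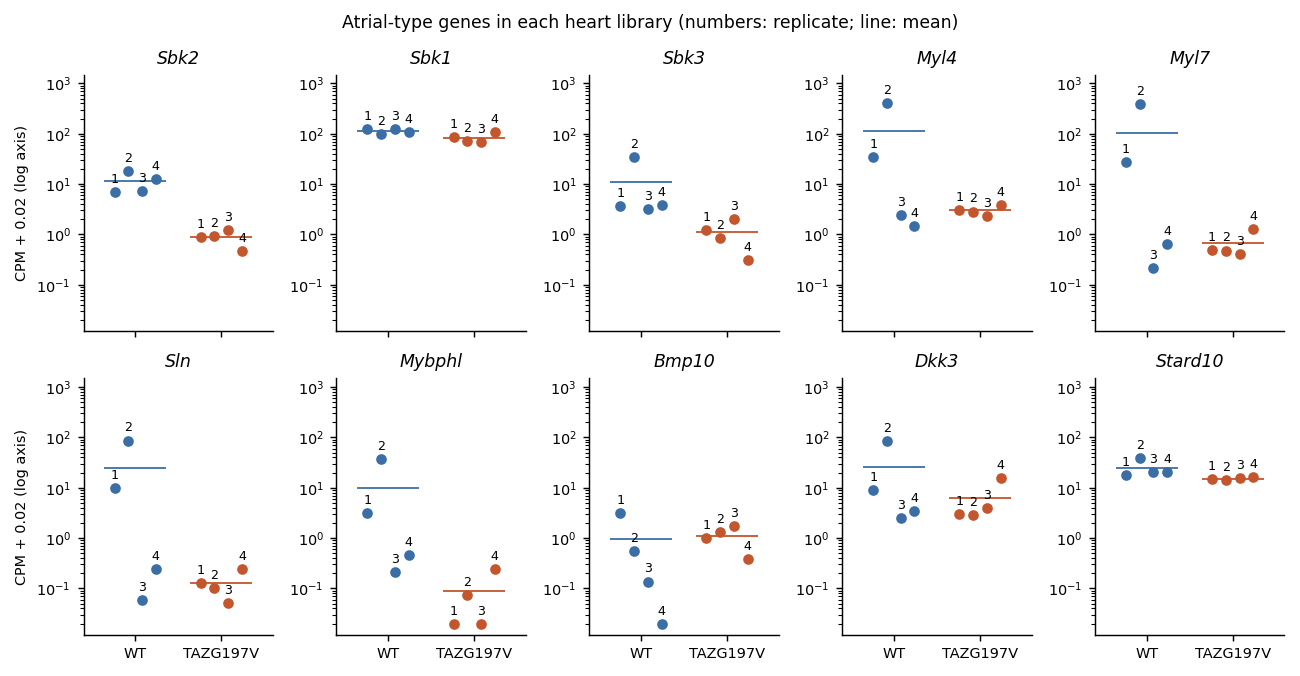
Level of each of the 10 genes in each library, as CPM with 0.02 added on a log axis. Points are libraries marked by replicate number and lines are genotype means (n = 4). WT 1 and WT 2 rise above all others for Myl4, Myl7, Sln and Mybphl, whereas all 4 WT points of Sbk2, from 7.07 to 17.9 CPM, lie above all TAZG197V points.

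To see which genes share the pattern of WT 1 and WT 2, the excess of these libraries over the mean of WT 3 and WT 4 was expressed per 100 CPM of excess Myl7. Myl4 gave 125 in WT 1 and 106 in WT 2, and Mybphl gave 10.5 and 9.4. Dkk3 gave 22.5 and 21.7. These 3 genes kept a similar proportion to Myl7 in both libraries although WT 2 held 384 CPM of excess Myl7 and WT 1 held 26.6 CPM. Sln gave 36.5 and 22.5, which differ more. Taken as shares of the summed counts with Myl7, without the level of WT 3 and WT 4 subtracted, WT 1 was above WT 2 for Sln, Dkk3 and Myl4. The share of Sln was 26.7% in WT 1 (95% Clopper-Pearson interval 24.1 to 29.4) and 18.4% in WT 2 (17.8 to 19.0). That of Dkk3 was 25.0% (22.4 to 27.7) and 18.3% (17.7 to 18.9), and that of Myl4 56.6% (54.3 to 58.9) and 51.7% (51.1 to 52.2), with intervals for counting error in 1 library each. In the excess per 100 CPM of excess Myl7, Sbk3 differed more, with 0.576 in WT 1 and 7.94 in WT 2. Bmp10 gave 11.5 and 0.121, Sbk1 34 and -3.7, and Stard10 -8.95 and 4.9. Sbk2 gave -11.2 and 2.05, since WT 1 (7.07 CPM) was near WT 3 (7.34 CPM) but below the mean of WT 3 and WT 4 (12.7 CPM in WT 4). The share of a library's cells that are atrial and the RNA per cell cannot be told apart in these bulk samples.

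Correlations over the 8 libraries describe the same grouping only in part. On deviations from the genotype means of log2 CPM, Myl7 had a Pearson r of 0.997 with Sln, 0.976 with Mybphl and 0.975 with Myl4. Its r was 0.91 with Dkk3, 0.698 with Stard10, 0.607 with Sbk3 and 0.29 with Sbk2. Sbk2 and Sbk3 had an r of 0.87 with each other, and of -0.898 and -0.711 with Sbk1. The r of Sbk3 with Stard10 was 0.782. Genes of 1 library share its depth and tissue composition, and no p-value is attached.

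**Figure D2:**
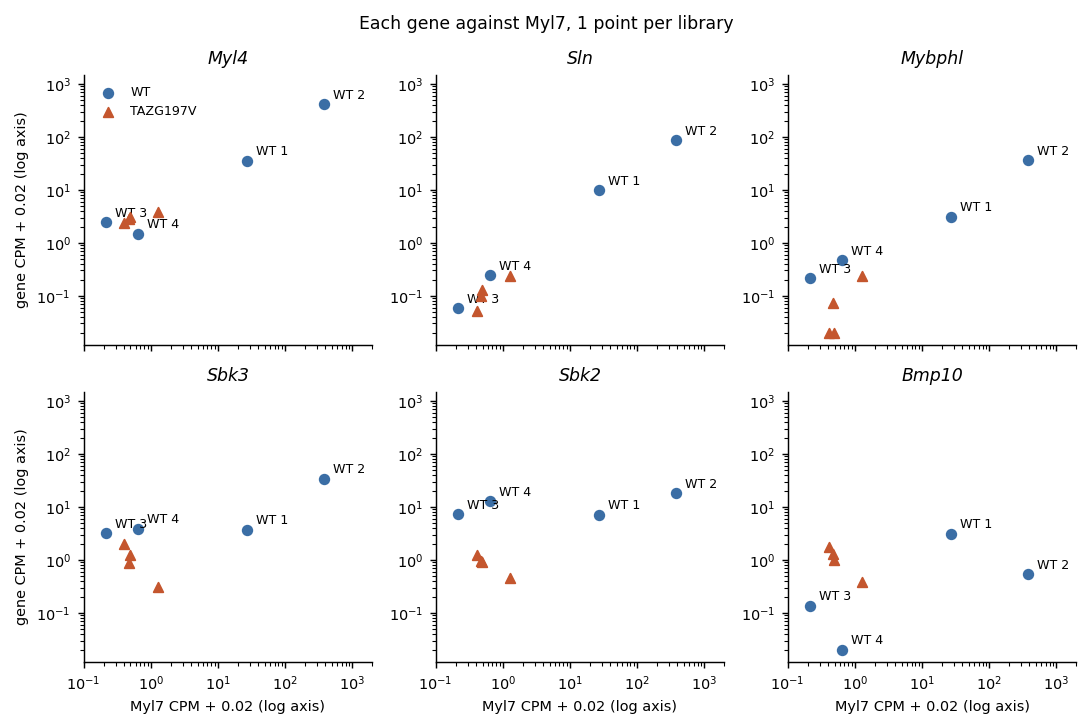
CPM of 6 genes against CPM of Myl7, 1 point per library, both log axes with 0.02 added. Myl4, Sln and Mybphl climb with Myl7 through WT 1 and WT 2, whereas Sbk2 in WT 3 and WT 4 (7.34 and 12.7 CPM) stays above TAZG197V at similar Myl7, and Bmp10 is lower in WT 2 than in WT 1.

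Dkk3 (ENSMUSG00000030772, chr7:112116017-112159057, minus strand), a secreted glycoprotein of the Dickkopf family, was at 8.96, 86.2, 2.49 and 3.48 CPM in WT 1 to WT 4. It was at 3.02, 2.81, 3.87 and 15.4 CPM in TAZG197V 1 to 4. Beyond the high WT 2, the library with the most brain marker counts, TAZG197V 4, was the highest mutant library. WT 4, the other library high in brain markers, held 3.48 CPM, near WT 3 at 2.49 CPM. The fitted log2 fold change was -0.35 (SE 0.196). It was 0.28 without WT 1, -3.15 without TAZG197V 4 and 0.90 without WT 1 and WT 2. With the brain marker score as covariate in place of the surrogate variables it was -2.40 (SE 1.32). With all 8 libraries it was -2.03 with no surrogate variables and no covariate, and -2.48 with 1 surrogate variable. The fits without TAZG197V 4 and without WT 1 and WT 2 had 1 surrogate variable in place of 2. Their values thus do not show the effect of the omitted libraries alone. With both libraries numbered 4 left out, also with 1 surrogate variable, the log2 fold change was -2.02 (SE 0.266). Dkk3 met the criteria of a call as lower in that setting, without WT 3, WT 4 or TAZG197V 4, and with no low-count filter, and its sign was positive in 6 of the 21 other settings.

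Bmp10 (ENSMUSG00000030046, chr6:87428994-87437677, plus strand), a ligand secreted by right atrial muscle that signals through Acvrl1, had few counts throughout. It had 92, 19, 3 and 0 counts in WT 1 to WT 4 and 27, 47, 54 and 10 in TAZG197V 1 to 4. WT 1, not WT 2, was its highest library, and all 4 mutant libraries exceeded WT 3 and WT 4. Bmp10 made up 10.3% of the summed Bmp10 and Myl7 counts in WT 1 (95% Clopper-Pearson interval 8.42 to 12.5) and 0.136% in WT 2 (0.0816 to 0.212), intervals that cover counting error only. In the TAZG197V libraries this share ran from 22.2% to 81.8%. The fitted log2 fold change was 0.16 (SE 0.968), and its sign changed when WT 2, WT 3, WT 4 or TAZG197V 3 was left out. Without WT 1 it was 3.65, a value set against the 19, 3 and 0 counts left in WT.

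Stard10 (ENSMUSG00000030688, chr7:101317086-101346626, plus strand), a lipid transfer protein, was at 18, 39.2, 20.1 and 20.6 CPM in WT 1 to WT 4. It was at 14.9, 13.9, 15.7 and 16.2 CPM in TAZG197V 1 to 4. Every WT library lay above every mutant library, by a small margin outside WT 2. The fitted log2 fold change was -0.51 (SE 0.122), and -0.41 (SE 0.0905) without WT 1 and WT 2. The call was lost in 5 of 21 other settings, namely with the atrial score (-0.10), the lane (-0.68), the replicate block (-0.62) or the brain score (-0.69) as covariate, and without TAZG197V 2 (-0.40). The covariate fits had no surrogate variables. Such a fit without a covariate gave -0.7 and narrowly kept the call.

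Of the 10 genes, 8 entered the fit. Of these, 6 were called lower and 0 higher, where 15% of the 15084 genes tested were called lower, 18.5% higher and 33.4% in either direction. Bmp10 and Dkk3 were not called. Since the list was drawn with this contrast known, nothing is read from that count. With WT 1 and WT 2 left out, 3 were called (Sbk2, Sbk3 and Stard10), beside 3660 of 15842 genes tested. Without WT 1 alone the same 3 were called, beside 4186 of 15228 genes. The number without TAZG197V 2 was 2 (Sbk2 and Mybphl), beside 3666 of 15251 genes. Mybphl failed the low-count filter in the main fit and passed it there on its WT counts, so its call is not read as a result. The median log2 fold change was -1.21 over the 8 genes and -0.013 over all genes tested. WT libraries all lay above TAZG197V libraries for Sbk2, Sbk3 and Stard10, and for 13.9% of all genes tested. The genotypes did not overlap in either direction for 33.2% of them.

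**Figure D3:**
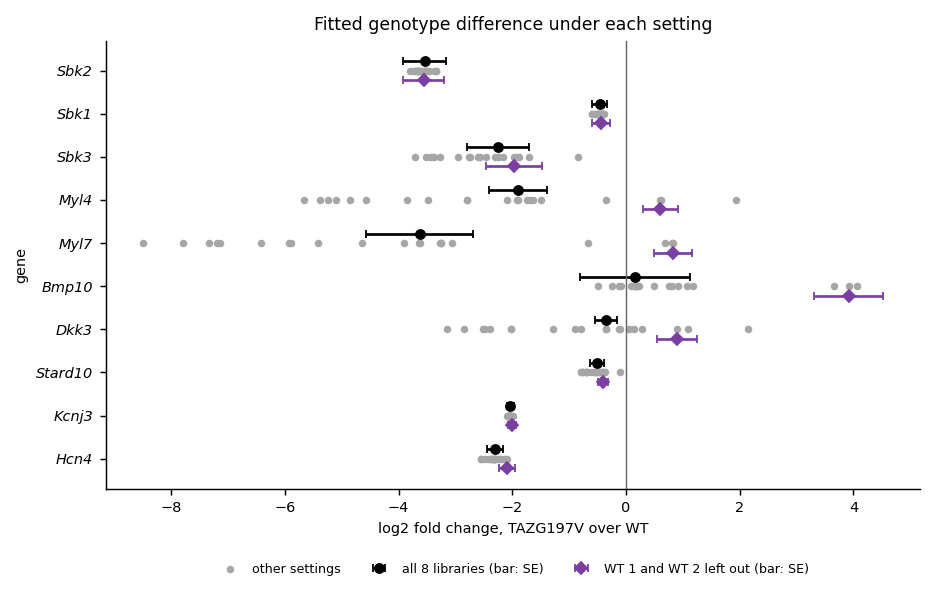
Fitted log2 fold change (TAZG197V over WT) with all 8 libraries, with WT 1 and WT 2 left out, and under the other settings, for the 8 tested members and for Kcnj3 and Hcn4. Bars are SE. Sbk2 stays between -3.80 and -3.34, whereas Myl7 ranges from -8.50 to 0.83 and Bmp10 from -0.50 to 4.07.

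The libraries also fall into sequencing lanes, with numbers 1 and 2 of each genotype in lane 7 and numbers 3 and 4 in lane 8. The Sbk2 mean of WT was 13.9 times that of TAZG197V in lane 7 and 12.3 times in lane 8. For Sbk3 these ratios were 18.5 and 3.13. For Myl7 they were 442 and 0.49, and for Myl4 76.3 and 0.639, so that the direction of both light chains differed between lanes. Stard10 gave 1.98 and 1.28 and Sbk1 gave 1.4 and 1.3. Only 2 libraries of each genotype stand behind a value, and no test was made within a lane.

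Around Sbk2 and Sbk3, 24 genes had a start within 100 kb, of which 15 were tested. Of these, 3 were called lower and 0 higher, beside 15% and 18.5% of all genes tested. Besides the kinases themselves, the called gene was Isoc2a at -87.3 kb from the start of Sbk2, with a log2 fold change of -0.50 (adjusted p = 0.000896, edgeR). The nearest tested genes on either side, Ssc5d (-0.32) and Zfp579 (-0.22), were not called.

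**Figure D4:**
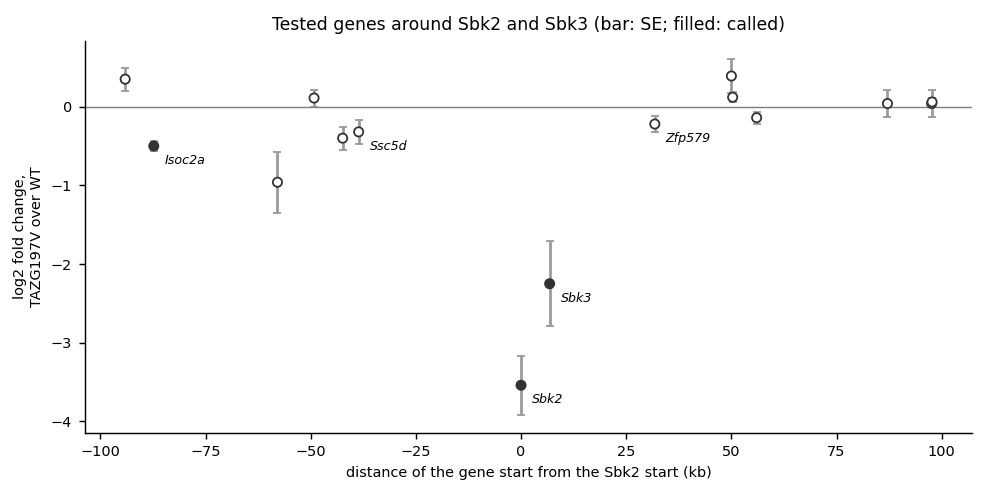
Log2 fold change (TAZG197V over WT) of the 15 tested genes around Sbk2 and Sbk3 against the distance of their start from that of Sbk2, in kb. Bars are SE and filled points are called. Sbk2 (-3.54) and Sbk3 (-2.25) lie well below their neighbours.

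Other atrial genes, listed outside the 10, showed both directions. Of 11 tested, 5 were called lower and 1 higher, where 15% and 18.5% of all genes tested were, and their median was -0.47 (log2). When WT 4 was omitted, or TAZG197V 4, 7 were lower and 0 higher. The acetylcholine-gated potassium channel subunit Kcnj3 fell from 109 ± 13 to 26.3 ± 3.74 CPM (SD, n = 4 each), a log2 fold change of -2.04 (SE 0.0617, edgeR adjusted p = 4.79e-07), with every WT library above every mutant library. Angpt1, an angiopoietin, fell by 1.78 on the log2 scale (SE 0.185, adjusted p = 0.000235), and Cacna2d2, a calcium channel subunit, by 1.67 (SE 0.233, adjusted p = 0.000962). Cacna2d2 was highest in WT 2, at 15.4 CPM against 2.05 to 3.28 CPM in the other WT libraries, and was not called without that library. Pam, an atrial granule enzyme, rose by 0.65 on the log2 scale (SE 0.111, adjusted p = 0.00265), and was not called without WT 4, without TAZG197V 4 or with no surrogate variables. Nppa, the atrial natriuretic peptide gene, ran from 1.47 to 175 CPM in WT and from 23.3 to 127 CPM in TAZG197V and was not called (adjusted p = 0.397). Without WT 1 and WT 2, 3 genes of this list were lower (Kcnj3, Tbx5 and Angpt1) and 2 higher (Pam and Kcna5).

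Nodal and conduction markers had 3 of 6 tested genes called lower and 0 higher, beside the same 15% and 18.5%, with a median of -0.54. Hcn4, the pacemaker channel, fell from 14 ± 2.4 to 2.78 ± 0.759 CPM (SD, n = 4 each), a log2 fold change of -2.31 (SE 0.142, edgeR adjusted p = 1.78e-05). Its fold between genotype means was 6.24 in lane 7 and 4.01 in lane 8. The calcium channel Cacna1g (-1.25) and the transcription factor Tbx3 (-0.51) completed the 3, and Tbx3 was not called without TAZG197V 1, 2 or 3. Without WT 1 and WT 2, Hcn4 and Cacna1g were called. Cacna1g was at 33 and 52.3 CPM in WT 1 and WT 2 against 16.7 and 16.9 CPM in WT 3 and WT 4. It was not called once WT 1, WT 2 and the surrogate variables were left out, nor with the atrial score as covariate.

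The counts of the next lists stand beside 15% of all tested genes called lower and 18.5% called higher. Among ventricular markers 2 of 8 were called lower, Pln (-0.66), which inhibits the calcium pump, and Irx4 (-0.34), a ventricular transcription factor, and 0 higher. The pump and its small regulators gave 2 of 5 lower, Pln and the pump Atp2a2 (-0.41), and 0 higher. Atrial transcription factors gave 3 of 11 lower, Tbx5 (-0.60), Mef2c (-0.49) and Prrx1 (-0.34), and 0 higher. Among light chain relatives 1 of 9 was lower, Myl9 (-1.12), which smooth muscle uses, and among myosin binding proteins 1 of 2, Mybpc2 (-1.75). Receptors and targets of Bmp10 gave 2 of 14 lower, the endothelial receptors Eng (-0.48) and Acvrl1 (-0.35), and 0 higher. Of the Dickkopf relatives tested, the Wnt co-receptors Lrp6 (-0.39) and Lrp5 (-0.27) were lower, 2 of 3. The calls of Mybpc2, Eng, Acvrl1 and Lrp5 were each lost without TAZG197V 2. Without WT 4, 5 of 8 ventricular markers were called lower (Myl2, Myl3 and Fhl2 in addition), 3 light chain relatives (Myl2 and Myl3 in addition) and 5 atrial transcription factors (Nr2f1 and Nr2f2 in addition). Stard relatives gave 3 of 10 lower and 1 higher, Stard5, which rose from 7.18 ± 1.71 to 25.5 ± 3.4 CPM (SD, n = 4 each), a log2 fold change of 1.78 (SE 0.146, edgeR adjusted p = 7.43e-05).

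Marker lists of other tissue stand beside the same shares, with 33.4% of all genes called in either direction. Of 6 vascular smooth muscle markers 4 were lower and 1, Acta2 (1.16), higher, and of 7 epicardial markers 1, Wt1 (-0.57), was lower. Skeletal muscle gave 1 of 2 tested lower (Neb, -0.73), brain 1 of 6 higher (Slc1a2, 0.66) and 1 lower (Mbp, -1.21), and red cell markers 3 of 5 lower. For red cell markers 0 were called without WT 4, in a fit with 1 surrogate variable. All 8 libraries with 1 surrogate variable also gave 0. Lung markers had 0 genes tested. The calls of Wt1, Neb and Slc1a2 were each lost when single libraries were left out, Slc1a2 for example without WT 1. For the vascular list, 2 genes in place of 4 were called lower (Tagln and Cnn1 lost) without WT 1, WT 2, TAZG197V 1, TAZG197V 2 or TAZG197V 3, and for the epicardial list 3 without WT 3. The brain score was the mean log2 CPM of the brain markers. With it as covariate in place of the surrogate variables, Sbk2, Sbk1, Sbk3 and Myl7 were called lower. The part of the other tissues in the values of the 10 genes was not tested.

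**Figure D5:**
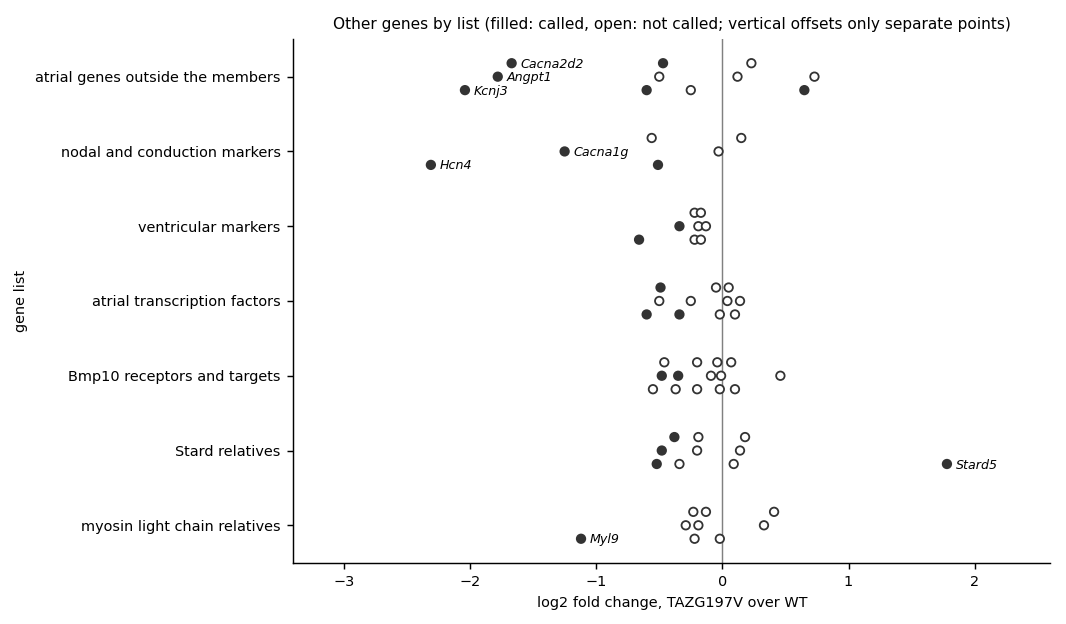
Log2 fold change (TAZG197V over WT) of genes in the 7 lists named on the axis (other atrial genes, nodal, ventricular, transcription factors, Bmp10 receptors, Stard and light chain relatives), filled where called. Kcnj3 (-2.04) and Hcn4 (-2.31) lie far to the left, and Stard5 (1.78) lies far to the right.

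Among tested genes with a mean scaled count of at least 50, those whose profile was most like Sbk2 over the 8 libraries were, on log2 CPM, Pdgfc (r = 0.99), Filip1l (0.984), 5031425E22Rik (0.984), Slc29a1 (0.982) and Gabpb2 (0.982). On deviations from the genotype means they were Uevld (0.989), Eef1a1 (0.98), Zfp472 (0.958), Kdm4c (0.957) and Gabpb2 (0.954). In the same search those most like Myl7 were Myl4 (0.98), Mmp23 (0.973), Srsf7 (0.971), Timp3 (0.965) and Tagln (0.962), and on deviations Srsf7 (0.976), Myl4 (0.975), Gm13479 (0.975), Erf (0.974) and Rabep1 (0.972). The search covered 12355 genes, and the highest of so many correlations over 8 libraries is a description only. Sln and Mybphl did not pass the low-count filter and so were outside this search, and Sln was closer to Myl7 (0.994 on log2 CPM and 0.997 on deviations) than any gene in it.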

How the data were processed

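Per the study and the submitters' processing notes, the authors demultiplexed reads of 50 bases with bcl2fastq 2.20.0, checked them with FastQC 0.11.9, aligned them to mm10 with STAR 2.7.3a and counted exon reads per gene with featureCounts (Subread 2.0.0). The deposited values were raw counts. The annotation release and strand setting were not given in the sources used here. Symbols and positions came from GENCODE M21, and 55230 gene IDs had a symbol. The 92 spike-in rows summed to 0 counts and were left out. In R 4.3.3, genes passing filterByExpr in edgeR 4.0.16 were TMM-scaled and genotype was tested by the two-sided quasi-likelihood F-test with 2 surrogate variables from svaseq (sva 3.50.0) and Benjamini-Hochberg adjustment. A gene was called at adjusted p under 0.05, a fold change beyond 1.15 and a mean scaled count of at least 50. The procedure was tested on simulated data. Alternatives included DESeq2 1.42.0, other covariates, scalings, filters and omitted libraries. Replicates differed by a chi-square of at least 10.2 per gene, so none was a repeat. The members, gene lists and tests were chosen with earlier results of these data known. Named genes are the 10 members, Taz, up to 3 called genes with the largest change and 3 with the highest level per list, the 5 genes most like Sbk2 or Myl7, and genes within 100 kb of Sbk2 and Sbk3, and not every gene that meets this rule is reported. 1 gene of the nodal list is not reported here and was left out of that list's counts.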

Additional observations from a re-analysis of the deposited data

Results flagged for a closer look

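Within groups of 4, a library was marked when its gap to the nearest other library was too large a part of the group's range by Dixon's criterion at the 95% level. Of 50 sets examined 7 were marked, where chance would mark about 2.5. Sbk3 was highest in WT 2, at 5.09 log2 CPM against 1.98 for the next library, a gap of 0.917 of the range. Myl7 was highest among mutants in TAZG197V 4, at 0.434 against -0.889 log2 CPM, a gap of 0.843. The mean log2 CPM of the epicardial and mesothelial markers was lowest in WT 3 (0.868 of the range) and in TAZG197V 1 (0.831). Vascular smooth muscle markers were highest in WT 2 (0.86), the library with the most Myl7. Brain markers were highest in WT 4, at 4.27 against 1.60 log2 CPM (0.893), and in TAZG197V 4, at 5.04 against 1.58 (0.863).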

How the results depend on the processing

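Over 21 other settings, Kcnj3, Hcn4, Stard5 and Taz kept their direction and their call. As a description, Sbk2 ranged from -3.80 to -3.34, Sbk3 from -3.71 to -0.85 and Stard10 from -0.79 to -0.10. Values with a changed sign were, with the atrial score as covariate, which does not overlap between genotypes, 1.94 for Myl4, 0.81 for Myl7 and 2.14 for Dkk3. With WT 1 and WT 2 left out, chosen after seeing the data, they were 0.60, 0.83 and 0.90, and without surrogate variables as well 0.61, 0.69 and 1.09. Leaving out 1 library gave Dkk3 from -3.15 to 0.28 (0.05 without TAZG197V 1, 0.14 without TAZG197V 2) and Bmp10 from -0.50 to 3.65 (-0.13 without WT 2, -0.25 without WT 4, -0.08 without TAZG197V 3). Main counts were 5043 genes, 6 members and 36 list genes called. A fold change beyond 1.5 gave 1831 genes and 22 list genes, and an adjusted p under 0.01 gave 3134, 1 and 22. The lane, replicate block, atrial score and brain score took the place of the surrogate variables in their fits. With no surrogate variables and no covariate the counts were 4192, 5 and 30, and the atrial score gave 2941, 1 and 24. Fits with omitted libraries estimated the number of surrogate variables anew. Lane as covariate gave 4235 genes and 2 members. WT 1 and WT 2 left out gave 3660 genes and 3 members, and without surrogate variables 2779, 2 and 20. Leaving out 1 library gave 3666 to 4814 genes, 2 to 8 members and 25 to 41 list genes. The member counts include Mybphl where it passed the low-count filter only because a library was left out. The causes were not tested. The replicate block, with the number in the titles, gave 4272 genes, 2 members (Sbk2 and Sbk3) and 29 list genes; same-numbered libraries correlated at 0.354, 0.0672, 0.342 and 0.457, and WT 3 correlated best with TAZG197V 2 (0.385), so the numbers were not taken as pairs. Depth limited Sln, Mybphl and Bmp10, where 3 counts corresponded to 0.081 to 0.134 CPM.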
